A study of Homo sapiens with 30 samples.

Results

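Cells in which transcriptional mutagenesis (TM) altered p53 were followed from 6 h to 24 h after transfection, and the genes whose response to p53 came up with time were sought. TM is the misreading of a DNA lesion by RNA polymerase, which puts a wrong base into the transcript while the gene itself keeps its sequence. The members are the 12 libraries of p53 TM and pGFP cells, 3 per vector and time point, of 30 libraries in 10 groups. They were taken by the column names of the raw count table, and no measured value entered the choice. The recovery of a gene is defined here as the interaction of vector and time, that is the log2 difference of p53 TM to pGFP at 24 h minus the same difference at 6 h. Libraries of wild type p53 and of p53 O6-meG served to show how far p53 TM cells still lay from cells without TM.

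All cells were H1299, a human lung carcinoma line that makes no p53 of its own, so any p53 came from the transfected vectors. The pGFP vector expresses GFP alone. The wild type p53 vector expresses GFP and p53 from separate TRE-tight promoters, and the p53 O6-meG vector does so with 1 O6-methylguanine, a lesion, in the template strand at codon 248. In cells of these 3 kinds the repair enzyme AGT was active. The p53 TM cells carried the p53 O6-meG vector too and were given 10 µM O6-bzG, which inactivates AGT, the enzyme that removes the lesion. The share of altered p53 transcripts at either time is not shown by the count table. The labels give O6-bzG to no other group, so in every comparison with pGFP, wild type p53 or p53 O6-meG the effects of the compound and those of TM cannot be told apart. The vectors lack a mammalian origin of replication and were introduced transiently. GFP-positive cells were sorted before RNA was isolated, so each library pools the transfected cells of 1 of 3 biological replicates.

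Titles of 2 libraries disagree with themselves. Replicate 2 of p53 TM at 6 h and replicate 2 of p53 O6-meG at 6 h each carry in parentheses, and in the genotype field, the name of the other group. The column names were followed for both. Counts of genes called in the interaction, over all genes and in each list, were also made without these libraries and with the names in parentheses. Under the column names *CDKN1A*, which codes for the cell cycle inhibitor p21, stood at 65.7, 50 and 57.7 CPM (counts scaled to library size with TMM factors) in the 3 p53 TM libraries at 6 h and at 268, 249 and 261 CPM in the 3 p53 O6-meG libraries. The groups did not overlap for this gene under the column names and did under the parentheses, where the 50 and the 249 change places. This value was not used to choose the grouping.

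Totals of the 12 libraries ran from 32302699 to 58732541 counts on genes (median 44984994). Replicate 1 of p53 TM at 24 h had 1.187% of its counts on mitochondrial genes, against 0.3944% and 0.4855% in the other 2 of its group. It also had the highest median response of the 3, given below. A high mitochondrial share was not particular to this library. At 24 h replicate 1 had the highest share of its group in pGFP (0.7249%), wild type p53 (1.116%) and p53 O6-meG (0.6976%) as well. The part of p53 TM 24 h replicate 1 in the results is given as counts without it. The epithelial and mesenchymal genes expected in this line were present in all 30 libraries, at 111 to 181 CPM for *KRT8*, 273 to 720 CPM for *KRT18* and 1940 to 3580 CPM for *VIM*. Of the 6 markers of other cell types in the table, *PTPRC*, *PECAM1*, *SFTPC*, *SCGB1A1* and *ALB* did not exceed 1 CPM in any library. The sixth, the globin gene *HBB*, lay between 162 and 1200 CPM, with means of 304 CPM in p53 TM and 562 CPM in pGFP at 6 h and 528 CPM and 941 CPM at 24 h. Its interaction was a log2 of 0.05 (SE 0.49, adjusted *P* = 0.99), and its part in the results was not tested.

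p53 is a transcription factor that binds DNA as a tetramer and switches on genes that halt the cell cycle, repair DNA, alter metabolism or kill the cell. Among them is *MDM2*, whose product marks p53 for degradation and so limits the response. Codon 248 codes for an arginine that touches DNA, and proteins altered there lose much of their binding to target sites. Genes of the cell cycle fall when p53 is active, mostly through p21 and the DREAM complex, a repressor of E2F and cell cycle promoters. A p53 binding element is a pair of half-sites of fixed consensus with a short spacer.

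Promoter windows from RefSeq (GRCh38.p14, 250 bases before to 50 after a start site) were searched on both strands for such a pair, with 0 to 13 bases between the half-sites, the C and G of each core kept and at most 2 mismatches in all to the p53 half-site consensus, and overlapping matches counted once per window. Of the 28 genes that rose in the interaction among those picked by the rule for named genes, 21 had a window, and 5 of these (23.8%) held an element. An element was found in 1030 of all 35116 windows (2.93%), or for 989 of 27305 genes (3.62%) with a window. The genes were named with values of these data known, and many were picked from lists of p53 targets. The shares are therefore a description and were not tested as a trait of genes that recover. The 5 windows are shown as those of these genes that hold an element. They are written 5′ to 3′ on the strand of the gene, with the half-sites in capitals.
MDM2, chr12:68808774-68809073, plus strand: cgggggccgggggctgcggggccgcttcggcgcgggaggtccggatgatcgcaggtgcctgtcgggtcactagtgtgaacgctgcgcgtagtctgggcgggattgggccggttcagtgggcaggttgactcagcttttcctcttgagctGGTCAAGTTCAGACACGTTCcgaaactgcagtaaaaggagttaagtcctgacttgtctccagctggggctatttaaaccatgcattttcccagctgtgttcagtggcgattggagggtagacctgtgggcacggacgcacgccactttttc
PANK1, chr10:89645193-89645492, minus strand: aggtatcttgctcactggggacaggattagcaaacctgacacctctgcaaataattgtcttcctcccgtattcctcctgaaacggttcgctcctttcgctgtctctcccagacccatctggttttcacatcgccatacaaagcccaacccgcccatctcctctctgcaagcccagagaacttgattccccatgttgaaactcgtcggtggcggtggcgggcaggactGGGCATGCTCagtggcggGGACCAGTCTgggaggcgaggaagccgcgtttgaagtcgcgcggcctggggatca
FAS, chr10:88991181-88991480, plus strand: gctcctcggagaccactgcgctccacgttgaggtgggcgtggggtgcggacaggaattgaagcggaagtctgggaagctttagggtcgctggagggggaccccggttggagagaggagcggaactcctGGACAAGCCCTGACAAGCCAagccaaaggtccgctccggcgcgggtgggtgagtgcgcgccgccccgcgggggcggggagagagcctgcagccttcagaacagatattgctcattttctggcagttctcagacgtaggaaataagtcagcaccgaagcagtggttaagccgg
AEN, chr15:88621090-88621389, plus strand: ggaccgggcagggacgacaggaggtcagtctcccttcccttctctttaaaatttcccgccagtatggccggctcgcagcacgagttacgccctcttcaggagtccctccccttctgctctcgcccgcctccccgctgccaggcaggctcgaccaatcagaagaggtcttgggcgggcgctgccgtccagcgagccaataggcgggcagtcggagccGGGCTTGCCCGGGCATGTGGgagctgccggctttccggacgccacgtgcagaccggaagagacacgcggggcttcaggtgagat
DDB2, chr11:47214724-47215023, plus strand: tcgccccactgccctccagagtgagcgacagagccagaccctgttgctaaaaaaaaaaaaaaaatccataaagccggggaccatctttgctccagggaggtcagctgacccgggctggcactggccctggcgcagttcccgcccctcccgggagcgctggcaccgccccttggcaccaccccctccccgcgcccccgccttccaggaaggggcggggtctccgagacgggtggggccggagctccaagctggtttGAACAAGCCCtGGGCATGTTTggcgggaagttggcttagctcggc
The element of *DDB2* matched the consensus with 0 mismatches and a spacer of 1 base. That of *PANK1* had 1 mismatch and a spacer of 8 bases, and those of *MDM2*, *FAS* and *AEN* had 2 mismatches and no spacer. Relative to the start site of the window shown, the elements of *MDM2*, *FAS* and *AEN* lay upstream, that of *PANK1* spanned it, and that of *DDB2* lay downstream. The windows of *MDM2*, *FAS* and *DDB2* lay inside the gene spans given below. Upstream of the window's start site is therefore not upstream of the whole gene for *MDM2* and *FAS*. A match says only that these letters are present and shows no binding.

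Across the 20875 genes tested, 852 (4.08%) rose in p53 TM cells relative to pGFP from 6 h to 24 h and 62 (0.297%) fell, at an adjusted *P* below 0.05 by edgeR's quasi-likelihood test. A rise of at least 2-fold was seen for 377 genes and a fall of that size for 3. The median log2 interaction of all genes was 0.02. The 3 libraries of p53 TM at 24 h, each set against pGFP of that time, did not overlap the 3 at 6 h for any of the 852 genes, which were called on these values. Over all genes tested the late libraries lay wholly above the early ones in 3885 (18.6%) and wholly below in 2176 (10.4%). Per library, the median log2 difference of these genes to pGFP was −0.03, −0.08 and −0.03 at 6 h and 1.12, 0.76 and 0.60 at 24 h. Replicate 1 at 24 h was the highest and replicate 3 the lowest, and the genes were chosen on these values. In bulk RNA a larger share of responding cells and a stronger response in each cell cannot be told apart. Protein-coding genes made up 760 of the 852 (89.2%) and 68.7% of the genes tested, and long non-coding RNAs 64 (7.51%) and 16.6%.

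Both terms of this interaction were unequal in size. At 6 h 12 genes (0.0575%) were at least 2-fold above pGFP in p53 TM cells, and at 24 h 644 (3.09%). With the replicate number as a block within each time, 1798 genes rose and 554 fell in the interaction. Scaling by DESeq2's size factors in place of TMM gave 689 and 144, which moved the share of rises from 93.2% to 82.7%, and the DESeq2 Wald test gave 880 and 296 (74.8%). Without both libraries of conflicting title 619 genes rose and 42 fell, and 611 of the 619 were among the 852. Without p53 TM 24 h replicate 1 the numbers were 508 and 26, with 505 of the 508 shared. With the names in parentheses 1 gene rose and none fell by edgeR, while 1477 genes had an unadjusted *P* below 0.05. That gene was *LINC00324*, a long non-coding RNA (log2 3.05, adjusted *P* = 0.0226), named here after its values were seen.

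**Figure D1:**
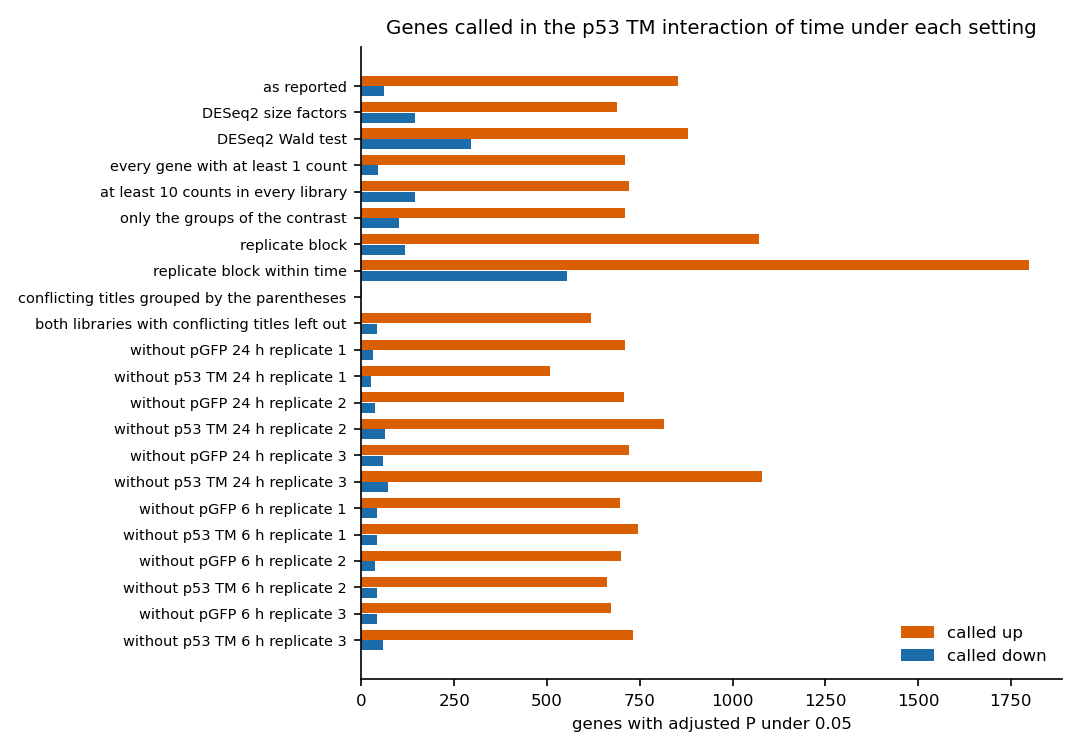
Number of genes called up (orange) and down (blue) in the interaction of p53 TM and time (x axis, genes with adjusted *P* below 0.05) under each way of fitting or leaving out libraries (y axis). Rises outnumbered falls in every setting, from 1798 with the block within time to 1 with the titles grouped by the parentheses.

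Of 16 genes tested in the list of cell cycle arrest, 10 rose in the interaction and none fell (median log2 0.91 over the list), and the gap to wild type p53 narrowed for 5 and widened for 1. Across all genes, the gap narrowed for 433 (2.07%) and widened for 80 (0.383%), where the gap is the log2 difference of p53 TM to wild type p53 and its change is that at 24 h minus that at 6 h. A gap is called narrowed where p53 TM gained on wild type p53 and widened where it lost ground, on whichever side of wild type p53 it began. This second comparison uses no pGFP library. In the interaction 4.08% of all genes rose and 0.297% fell. These shares and those of the gap are the base for this list and every list that follows. The 10 were *CDKN1A*, *BTG2*, *ZNF385A*, *SFN*, *GADD45A*, *PLK2*, *GAS6*, *RBM38*, *CCNG1* and *PLK3*, with log2 interactions from 0.45 to 2.77. Without both libraries of conflicting title 7 of the list rose, and 7 without p53 TM 24 h replicate 1. With the replicate block within time 11 rose and 1 fell, and the gap narrowed for 10 and widened for 2. Under the names in parentheses no member of this list was called in the interaction of p53 TM or in the gap. The same held for every list that follows. No gene named below was called in the interaction of p53 TM under those names either.

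*CDKN1A* (chr6:36676460-36687337, hg38) stood at 42.1, 34 and 43.7 CPM in pGFP cells at 6 h and at 44.8, 50.3 and 49.3 CPM at 24 h. In p53 TM cells it went from the values above to 369, 422 and 289 CPM at 24 h. All 3 late libraries exceeded every early one by more than 4-fold on these levels. The log2 interaction was 2.37 (SE 0.22, adjusted *P* = 9.38e-08). Wild type p53 cells had 260, 242 and 262 CPM at 6 h and 546, 791 and 513 CPM at 24 h, so the gap narrowed by 1.36 (SE 0.22, adjusted *P* = 0.000245) while p53 TM stayed lower at 24 h (log2 −0.78, adjusted *P* = 0.000486).

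*BTG2* (chr1:203305491-203309602), which codes for an antiproliferative protein, stood at 6.74, 6.8 and 8.86 CPM in p53 TM cells at 6 h and at 70.4, 58.7 and 43.1 CPM at 24 h. In pGFP cells it stayed between 2.16 and 2.76 CPM over both times. With wild type p53 it stood at 101, 92.7 and 89.3 CPM at 6 h and 90.3, 82.1 and 74.2 CPM at 24 h. The p53 TM libraries lay above pGFP and below wild type p53 at both times, with no overlap with either. This gave a log2 interaction of 2.77 (SE 0.23, adjusted *P* = 1.81e-08) and the gap narrowed by 3.13 (SE 0.19, adjusted *P* = 1.72e-11).

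*PLK2* (chr5:58453982-58460139), a polo-like kinase, rose from 62.2, 57 and 56.1 CPM to 173, 126 and 123 CPM in p53 TM cells, a log2 interaction of 1.12 (SE 0.17, adjusted *P* = 0.000124). Wild type p53 cells rose over the same time from 216, 211 and 218 CPM to 451, 328 and 311 CPM. The change in the gap was 0.51 (SE 0.17, adjusted *P* = 0.13), which passed the test with the replicate block within time (adjusted *P* = 0.017) and without wild type p53 24 h replicate 1 (adjusted *P* = 0.00803). Every late p53 TM library lay below every wild type p53 library of either time. *SFN*, which codes for 14-3-3 sigma, had a log2 interaction of 2.00 (SE 0.56, adjusted *P* = 0.0356) on levels of 0.472 to 0.694 CPM at 24 h and lost its call without both libraries of conflicting title (adjusted *P* = 0.117) and in 9 of the leave-outs of 1 library. *PRDM1*, a transcriptional repressor, stood at 0.992, 0.884 and 1.39 CPM in p53 TM cells at 6 h and 6.1, 2.64 and 2.87 CPM at 24 h, against 17.3, 8.68 and 8.09 CPM in wild type p53 cells at 24 h. Its interaction did not pass the test (log2 0.89, SE 0.46, adjusted *P* = 0.43) except with the replicate block within time (adjusted *P* = 0.0237), where its gap also narrowed (adjusted *P* = 0.0364).

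**Figure D2:**
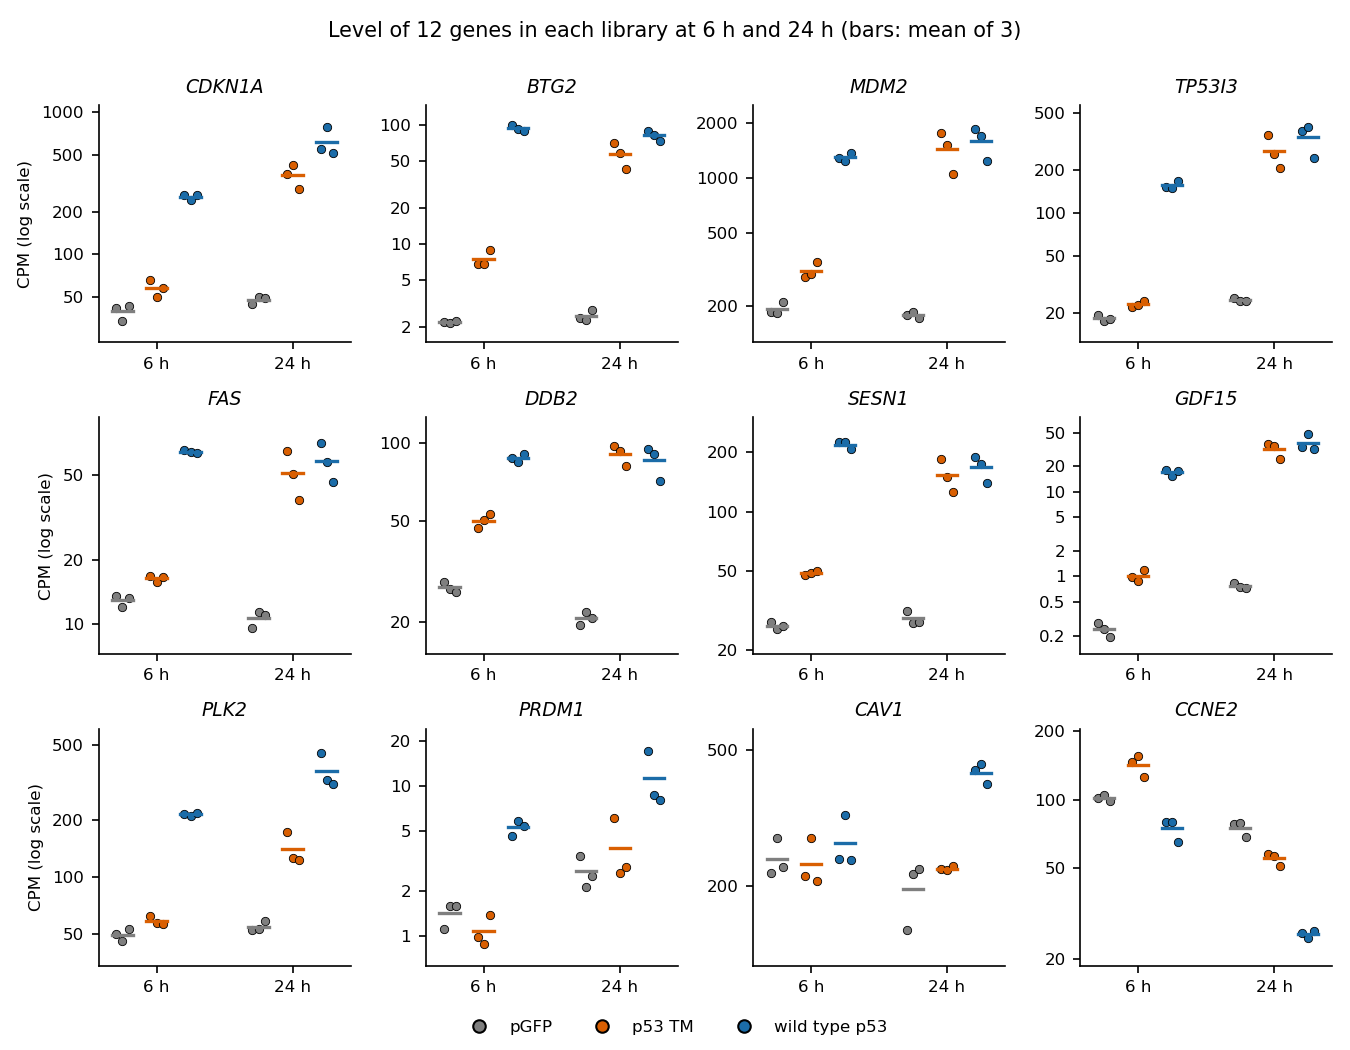
Level of 12 genes (y axis, CPM on a log scale) in each library of pGFP (grey), p53 TM (orange) and wild type p53 (blue) at 6 h and 24 h (x axis), with bars for the mean of 3. *BTG2* in p53 TM cells moved from 6.74, 6.8 and 8.86 CPM at 6 h to 70.4, 58.7 and 43.1 CPM at 24 h, while *CAV1* stayed between 207 and 277 CPM.

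Of 11 genes tested in the list of p53 feedback, most of which code for proteins that act back on p53, 5 rose (*MDM2*, *ZMAT3*, *TNFRSF10D*, *CCNG1* and *PPM1D*) and none fell (median log2 0.52), and the gap narrowed for 5. *TNFRSF10D* codes for a decoy receptor of TRAIL and stands in the list of death receptors too, and *CCNG1* stands in that of cell cycle arrest. *MDM2* (chr12:68808177-68845544) stood at 286, 300 and 348 CPM in p53 TM cells at 6 h and 1750, 1510 and 1050 CPM at 24 h. In pGFP cells it lay between 171 and 209 CPM at both times. The late p53 TM libraries fell into the range of the late wild type p53 libraries, which held 1840, 1700 and 1240 CPM, except for replicate 3, which was below them. In the interaction the log2 value was 2.32 (SE 0.20, adjusted *P* = 5.86e-08), the gap narrowed by 1.91 (SE 0.20, adjusted *P* = 1.31e-06), and at 24 h the difference to wild type p53 was −0.15 (adjusted *P* = 0.51). *PHLDA3*, an inhibitor of AKT signalling, and *TP53INP1*, a cofactor of p53, were called in the narrowing of the gap (log2 3.29 and 1.90). In the interaction with pGFP these 2 had positive values that did not pass the test (log2 1.63 and 0.87, adjusted *P* = 0.87 and 0.0564). Without both libraries of conflicting title 3 of the 11 rose, and 3 without p53 TM 24 h replicate 1. With the replicate block within time 7 rose and the gap narrowed for 7.

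*ZMAT3* (chr3:178960121-179072215), an RNA-binding protein, moved from 50.9, 43.5 and 55.2 CPM to 151, 109 and 78.6 CPM in p53 TM cells. Late wild type p53 libraries held 121, 115 and 89.2 CPM, and both groups overlapped. The log2 interaction was 1.63 (SE 0.24, adjusted *P* = 6.04e-05), and the change in the gap did not pass the test (0.78, SE 0.23, adjusted *P* = 0.081). It did with every gene of at least 1 count, with the replicate block, with the block within time and without p53 TM 24 h replicate 3 (adjusted *P* = 0.0179, 0.0337, 0.000825 and 0.00561).

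Of 22 genes tested in the list of apoptosis effectors, 11 rose and none fell (median log2 1.16). The gap narrowed for 8 and widened for *BID*. It narrowed for 7 and widened for none without p53 TM 6 h replicate 2, and likewise without both libraries of conflicting title. With the replicate block within time it narrowed for 11 and widened for 2. The 11 were *TP53I3*, *PIDD1*, *APAF1*, *BBC3*, *CASP6*, *AEN*, *TRIAP1*, *BAX*, *BAK1*, *CDIP1* and *AIFM2*. Most of these products promote apoptosis, whereas that of *TRIAP1* restrains it. Without both libraries of conflicting title 10 rose, and 10 without p53 TM 24 h replicate 1. With the replicate block within time 13 rose.

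*TP53I3* (chr2:24077433-24085861), an oxidoreductase, had the smallest *P* of the interaction among the 9 functional lists. It stood at 22.2, 22.9 and 24.5 CPM in p53 TM cells at 6 h, next to 17.7 to 19.5 CPM in pGFP, and at 349, 257 and 206 CPM at 24 h. Late pGFP libraries held 24.4 to 25.7 CPM and late wild type p53 libraries 375, 401 and 244 CPM. The late p53 TM and wild type p53 libraries overlapped, and the early ones were far apart. This gave a log2 interaction of 3.11 (SE 0.23, adjusted *P* = 1.88e-09) and the gap narrowed by 2.42 (SE 0.22, adjusted *P* = 1.15e-07).

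*BBC3*, which codes for PUMA, went from 2.08, 1.77 and 2.69 CPM to 11.3, 10.9 and 8.19 CPM in p53 TM cells and stayed below the 16.7, 20.8 and 14.1 CPM of late wild type p53 cells. The gap narrowed by 1.90 (SE 0.23, adjusted *P* = 8.77e-06) and was still open at 24 h (log2 −0.77, adjusted *P* = 0.00082). *APAF1*, the core of the apoptosome, moved from 37.8, 38.7 and 43 CPM to 235, 138 and 117 CPM, where replicate 1 stood high, with a log2 interaction of 1.55 (SE 0.27, adjusted *P* = 0.000498). *AEN*, a nuclease, moved from 140, 133 and 133 CPM to 158, 145 and 140 CPM while pGFP stood at 66.4 to 77.5 CPM at 6 h and 25.7 to 36.2 CPM at 24 h. Its log2 interaction was 1.34 (SE 0.14, adjusted *P* = 6.0e-07), and the p53 TM libraries of both times overlapped.

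*PMAIP1*, which codes for NOXA, did not pass the test. It lay at 47.7, 54.2 and 45.5 CPM in p53 TM cells at 6 h and 51.6, 39.7 and 47.4 CPM at 24 h (log2 interaction 0.38, SE 0.24, adjusted *P* = 0.55). At both times p53 TM was lower than wild type p53 (log2 −0.66 and −0.50, adjusted *P* = 0.00598 and 0.0298).

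Receptors that start apoptosis from the cell surface, and their decoys, rose in 4 members. Of 8 tested, 4 rose (*FAS*, *TNFRSF10A*, *TNFRSF10B* and *TNFRSF10D*) and none fell (median log2 1.30), and the gap narrowed for the same 4. With the replicate block within time 6 rose and the gap narrowed for 4. Without both libraries of conflicting title 4 rose and the gap narrowed for 3. *FAS* (chr10:88953813-89029605) stood at 16.8, 15.8 and 16.6 CPM in p53 TM cells at 6 h, above the 12 to 13.6 CPM of pGFP, and at 64.8, 50.7 and 38.2 CPM at 24 h. In wild type p53 cells it stood at 65.7, 64.5 and 63.7 CPM at 6 h and 70.6, 57.5 and 46.4 CPM at 24 h, which the late p53 TM libraries overlapped. In the interaction the log2 value was 1.92 (SE 0.20, adjusted *P* = 6.0e-07) and the difference to wild type p53 went from −1.98 (adjusted *P* = 9.78e-11) to −0.19 (adjusted *P* = 0.38).

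*TNFRSF10B*, the receptor DR5, moved from 114, 98.1 and 110 CPM to 262, 239 and 207 CPM in p53 TM cells. Late wild type p53 cells had 244, 258 and 210 CPM, with a log2 difference of −0.01 (adjusted *P* = 0.97). *TNFRSF10A*, the receptor DR4, moved from 35.7, 32.2 and 34.4 CPM to 69.2, 56.2 and 52.5 CPM and stayed under the 91.9, 83.1 and 70.7 CPM of late wild type p53 cells (log2 −0.47, adjusted *P* = 0.00373). The narrowing of its gap (0.63, SE 0.16, adjusted *P* = 0.0306) lost its call in 12 alternatives and kept it in 9. Its adjusted *P* in the 12 was 0.92 under the parentheses and 0.0502 to 0.113 in the others.

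Of 17 genes tested of DNA repair and nucleotide supply, 7 rose (*RRM2B*, *RPS27L*, *POLH*, *DDB2*, *ASCC3*, *XPC* and *LIG1*), none fell and the median log2 was 0.17. With the replicate block within time 8 rose and 2 fell. The gap narrowed for the same 7, or for 5 of the list without p53 TM 6 h replicate 2, without both libraries of conflicting title or without p53 TM 24 h replicate 1, and none of the 17 was lower than wild type p53 at 24 h, where 2620 of all genes (12.6%) were lower. At 6 h 9 of the 17 were lower, against 2261 of all genes (10.8%). *DDB2* (chr11:47214465-47239217), a sensor of UV damage, stood at 46.6, 50.3 and 53.1 CPM in p53 TM cells at 6 h and 97.3, 93.4 and 81.9 CPM at 24 h. Late wild type p53 cells held 94.7, 91.1 and 71.5 CPM, and the late libraries of both groups overlapped. The log2 interaction was 1.26 (SE 0.14, adjusted *P* = 6.82e-07), and the difference to wild type p53 was 0.08 at 24 h (adjusted *P* = 0.59).

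*XPC* (chr3:14145147-14178621), which recognizes bulky lesions, moved from 39, 41.3 and 46 CPM to 98.6, 85.7 and 80.8 CPM, with late wild type p53 cells at 88.9, 79.9 and 70.9 CPM. Its gap narrowed by 1.04 (SE 0.12, adjusted *P* = 5.25e-06). *ASCC3*, a helicase, rose with a log2 interaction of 1.07 (SE 0.13, adjusted *P* = 6.43e-06). *MGMT*, the gene of AGT, did not pass the test. It stood at 14.7, 13.4 and 11.3 CPM in p53 TM cells at 6 h and 14.7, 15.4 and 14.4 CPM at 24 h (log2 interaction 0.11, SE 0.16, adjusted *P* = 0.89).

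Genes of metabolism, antioxidant defence and autophagy had 10 of 18 rising and none falling (median log2 1.03), and the gap narrowed for 10. The 10 that rose were *GLS2*, *FDXR*, *PANK1*, *ACER2*, *DRAM1*, *SESN1*, *TIGAR*, *PRKAB1*, *SESN2* and *PRKAB2*. At 24 h 3 of the 18 were lower than wild type p53 (*GLS2*, *PANK1* and *DRAM1*) and 2 higher, where 2049 of all genes (9.82%) were higher. With the replicate block within time 13 of the list rose and 1 fell. *PANK1* (chr10:89579497-89645242), a kinase of coenzyme A synthesis, stood at 8.32, 8.79 and 8.63 CPM in p53 TM cells at 6 h, inside the 7.77 to 8.62 CPM of pGFP or just above it, and at 39, 29.8 and 26.5 CPM at 24 h. All 3 late libraries lay below the 68.8, 56.5 and 47.7 CPM of wild type p53. This gave a log2 interaction of 2.26 (SE 0.20, adjusted *P* = 6.19e-08), and the difference to wild type p53 went from −2.90 to −0.86 (adjusted *P* = 3.01e-05 at 24 h).

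*SESN1* (chr6:108984309-109094846), a stress sensor that restrains mTORC1, moved from 47.7, 49 and 50.3 CPM to 184, 149 and 125 CPM, overlapping late wild type p53 cells at 188, 173 and 140 CPM. Its gap narrowed by 2.02 (SE 0.17, adjusted *P* = 1.51e-08). *DRAM1*, a lysosomal protein of autophagy, moved from 12.1, 13 and 13.3 CPM to 54.3, 42.1 and 37.6 CPM and remained lower than wild type p53 (log2 −0.45, adjusted *P* = 0.00663). Its log2 interaction was 1.90 (SE 0.18, adjusted *P* = 1.00e-07).

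Of 18 secreted and signalling targets tested, 4 rose (*GDF15*, *JAG2*, *EPHA2* and *TGFA*) and none fell (median log2 0.44), and the gap narrowed for 3. At 6 h 9 were lower than wild type p53 and at 24 h 14, against 10.8% and 12.6% of all genes. The list holds *ATF3*, *BMP7*, *CAV1*, *VDR* and *ADGRG1*, which the study named from these samples as repressed by TM at 24 h. The 14 are therefore partly chosen for this direction. With the replicate block within time 7 rose and 1 fell, and the gap narrowed for 4 and widened for 3. *GDF15* (chr19:18374731-18389176), a stress hormone of the TGF-beta family, stood at 0.97, 0.884 and 1.18 CPM in p53 TM cells at 6 h and 37, 34.5 and 24.1 CPM at 24 h. In pGFP cells it stood at 0.192 to 0.283 CPM at 6 h and 0.736 to 0.826 CPM at 24 h. Late wild type p53 cells held 33.8, 47.9 and 32.2 CPM, which 2 of the 3 late p53 TM libraries overlapped. In the interaction the log2 value was 3.27 (SE 0.41, adjusted *P* = 7.75e-06) and the gap narrowed by 3.79 (SE 0.23, adjusted *P* = 1.72e-11).

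*JAG2*, a ligand of Notch, moved from 18.2, 14.5 and 17.7 CPM to 122, 73.9 and 57.8 CPM, with replicate 1 high, against 288, 284 and 214 CPM in late wild type p53 cells. Its log2 interaction was 2.12 (SE 0.29, adjusted *P* = 2.35e-05), and it was still lower at 24 h (log2 −1.63, adjusted *P* = 1.86e-06). *CAV1*, a protein of caveolae, did not pass the test. In p53 TM cells it lay at 215, 277 and 207 CPM at 6 h and 224, 223 and 229 CPM at 24 h, with a log2 interaction of 0.24 (SE 0.23, adjusted *P* = 0.79). Wild type p53 cells rose from 241, 322 and 238 CPM to 437, 453 and 397 CPM, and the difference to them was −0.93 at 24 h (adjusted *P* = 0.000168). The widening of its gap (−0.73, adjusted *P* = 0.103) passed the test in 5 alternatives, with an adjusted *P* of 0.000264 with the replicate block within time.

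*VDR*, the vitamin D receptor, *BMP7*, a growth factor, *ADGRG1*, an adhesion receptor, and *ATF3*, a stress-induced transcription factor, had log2 interactions of 0.56, 1.46, 0.41 and −0.21, none past the test (adjusted *P* = 0.0747, 0.31, 0.87 and 0.84). That of *VDR* passed it with the replicate block, with the block within time, without p53 TM 24 h replicate 3 and without p53 TM 6 h replicate 1 (adjusted *P* = 0.00979, 0.000482, 0.0319 and 0.0445). *ADGRG1* stood at 1.51, 1.18 and 0.799 CPM in late p53 TM cells and 6.67, 7.45 and 3.49 CPM in late wild type p53 cells. All 4 were lower than wild type p53 at 24 h, by 0.48 for *ATF3* to 2.35 for *ADGRG1* on the log2 scale (adjusted *P* = 0.032 and 1.86e-06). The study named all 4 from these samples as repressed by TM at that time, so this direction is no independent result.

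Of 9 long non-coding RNAs linked to p53, *PVT1* and *TP53TG1* rose and none fell (median log2 0.15). *TP53TG1* (chr7:87322943-87345560) moved from 6, 5.72 and 5.8 CPM to 22.4, 20.2 and 17.1 CPM, close to late wild type p53 cells at 24, 24.2 and 18.5 CPM, while pGFP went from 4.76 to 5.21 CPM at 6 h to 7.98 to 9.3 CPM at 24 h. The log2 interaction was 1.00 (SE 0.17, adjusted *P* = 0.000444). *PVT1* moved from 16.2, 15.4 and 14.9 CPM to 27.1, 22.7 and 20.3 CPM, with no change in its gap to wild type p53 past the test (−0.04, SE 0.15, adjusted *P* = 0.96). The gap narrowed for *TP53TG1*, *MIR34AHG* and *LNCTAM34A*, of which the last 2 overlap on opposite strands, and widened for *GAS5*. Whether the counting used strand is not stated, so values of genes with an overlapping neighbour are uncertain.

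**Figure D3:**
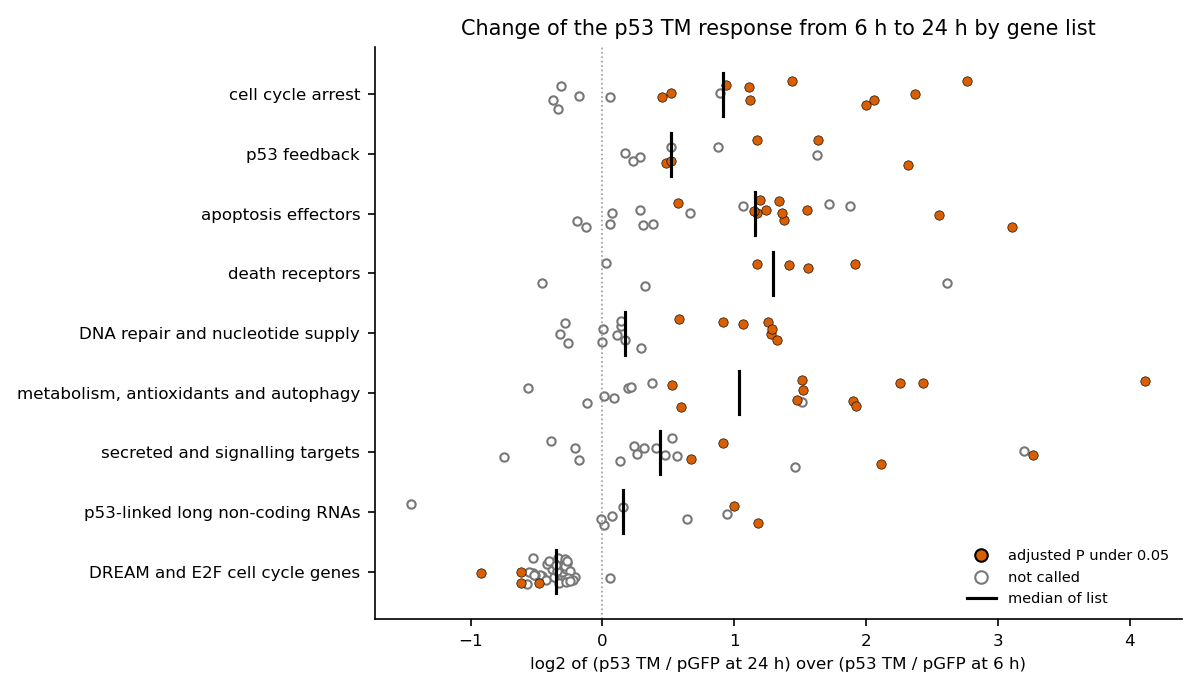
Log2 interaction of each tested gene (x axis, p53 TM over pGFP at 24 h relative to 6 h) in 9 lists (y axis), with filled points for adjusted *P* below 0.05, open points for the rest and a bar at the median. Medians of the 8 lists of p53 targets lay above 0, up to 1.30 for death receptors, and that of DREAM and E2F genes at −0.36.

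Cell cycle genes under DREAM and E2F had a median interaction below 0. Of 42 tested, 4 fell (*CCNE2*, *E2F1*, *ESCO2* and *CDC25A*) and none rose, with a median log2 of −0.36. The count of falls was 27 with the block within time and 12 by the DESeq2 Wald test, 4 without both libraries of conflicting title and 4 without p53 TM 24 h replicate 1. *CCNE2*, cyclin E2, stood at 146, 155 and 125 CPM in p53 TM cells at 6 h and 57.8, 56.7 and 51.4 CPM at 24 h. The early libraries lay above the 98.6 to 105 CPM of pGFP and the late ones below its 68.4 to 79 CPM. This gave a log2 interaction of −0.92 (SE 0.15, adjusted *P* = 0.000175). Wild type p53 cells held it lower throughout, at 79.7, 79.6 and 65.4 CPM and then 26.1, 24.6 and 26.6 CPM, and the change in the gap was 0.18 (SE 0.15, adjusted *P* = 0.70).

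The wild type response itself shifted in 903 genes up (4.33%) and 685 down (3.28%) over this time, or 2105 and 1881 with the replicate block within time, and 19 of the 42 DREAM and E2F genes fell in it. That comparison shares its pGFP libraries with the interaction of p53 TM, so only values are set side by side. Set against wild type p53 at 24 h, 19 of the 42 stood higher in p53 TM cells, against the 9.82% of all genes given above, and *CDC20*, an activator of mitotic exit, lower. The list holds *CDK1*, *CCNE2*, *E2F8*, *CCSAP* and *STOX1*, which the study named from these samples as less repressed with TM at 24 h. The count is therefore a description. *CDK1*, the kinase of mitotic entry, had 98.7, 105 and 84 CPM in late p53 TM cells, 139, 137 and 114 CPM in pGFP and 43.3, 61.8 and 50.8 CPM in wild type p53. The 3 groups did not overlap. Its log2 interaction was −0.52 in p53 TM (SE 0.22, adjusted *P* = 0.24, or 0.00849 with the replicate block within time) and −1.24 in wild type p53 (SE 0.22, adjusted *P* = 0.000818). *CCSAP*, *GFI1*, *STOX1* and *E2F8* had interactions of −0.27, −0.40, −0.52 and −0.56, none past the test. That of *E2F8* passed it with the replicate block within time (adjusted *P* = 0.0229), with the contrast's groups alone and by the Wald test, and that of *STOX1* by the Wald test (adjusted *P* = 0.0476). All 4 exceeded wild type p53 at 24 h (adjusted *P* from 2.06e-05 to 0.0441). The study named all 4 from these samples for weaker repression with TM, so this direction is no independent result.

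By fitted size, the 5 largest rises among called genes of at least 1 CPM were of genes nearly silent in p53 TM cells at 6 h. *RGMA*, a guidance molecule of axons, had 0 counts in all 3 early libraries and 3.82, 1.64 and 1.34 CPM at 24 h, at least 34.9-fold higher when the early group is set at 3 counts per library. *GRIP2*, a scaffold of glutamate receptors, had at most 2 counts early and 7.86, 3.24 and 2.45 CPM late, at least 69.5-fold higher. The pseudogene ENSG00000250770.3 had at most 1 count early and 1.98, 1.36 and 0.853 CPM late, at least 21.6-fold higher. *KCNS2*, a subunit of potassium channels, and *PLXNB3*, a receptor of semaphorins, had at most 4 and 5 counts early. *PLXNB3* reached 30.2, 14.4 and 9.26 CPM at 24 h with replicate 1 highest, against 53.4, 45.9 and 34.6 CPM in late wild type p53 cells. Its log2 interaction was 6.51 (SE 1.30, adjusted *P* = 0.00237).

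All 5 were below wild type p53 at 24 h, by 1.32 to 2.43 on the log2 scale (adjusted *P* from 1.68e-05 to 0.00211). Several of these calls rest on single libraries with hardly any counts. *RGMA* lost its call in 6 leave-outs of 1 library, with an adjusted *P* of 1 without pGFP 6 h replicate 2, and *KCNS2* and *GRIP2* lost theirs without pGFP 6 h replicate 1 (adjusted *P* = 0.19 and 0.32).

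The 5 largest falls were smaller. *FAM111B*, a protease linked to DNA replication, went from 114, 123 and 105 CPM in p53 TM cells at 6 h to 38.5, 43.9 and 39.2 CPM at 24 h, while pGFP went from 86.4 to 93.7 CPM to 61.4 to 66.5 CPM. Its log2 interaction was −0.99 (SE 0.11, adjusted *P* = 1.81e-06), from above pGFP to below it with no overlap at either time. *DLL4*, a ligand of Notch, fell with −1.52 (SE 0.38, adjusted *P* = 0.0144) on levels of 1.15 to 1.25 CPM early and 0.617 to 0.979 CPM late. *ENOX1* and *PLSCR4* fell with −1.16 and −0.84 (adjusted *P* = 0.0108 and 0.0194). *CCNE2* was the other of the 5. The calls of *DLL4* and *PLSCR4* were lost in 2 and 6 of the leave-outs of 1 library.

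The loss of ground to wild type p53 with the smallest *P* was seen for *DISP1*, *RGS2* and *CSKMT*. *DISP1*, which releases hedgehog ligands, stood at 9.72, 8.23 and 8.7 CPM in p53 TM cells at 6 h and 9.79, 9.78 and 8.33 CPM at 24 h. With wild type p53 it went from 7.24, 8.5 and 7.93 CPM to 24.8, 22.1 and 14.8 CPM. The p53 TM libraries of both times overlapped and only the late wild type p53 libraries stood apart, with a change in the gap (−1.32, SE 0.19, adjusted *P* = 8.49e-05). *RGS2*, a regulator of G protein signalling, fell from 8.73, 9.48 and 8.79 CPM to 7.18, 5.92 and 5.67 CPM in p53 TM cells (log2 interaction −0.60, SE 0.15, adjusted *P* = 0.0141), a call lost without both libraries of conflicting title (adjusted *P* = 0.0542). It was above wild type p53 at 6 h (log2 0.67, adjusted *P* = 2.44e-05) and not distinguishable from it at 24 h (−0.26, adjusted *P* = 0.0767), a change of −0.93 (SE 0.15, adjusted *P* = 0.000245). *CSKMT*, a methyltransferase, stood at 10.7, 10.1 and 9.95 CPM and then 6.75, 6.4 and 6.81 CPM in p53 TM cells. It began above wild type p53 (log2 0.40, adjusted *P* = 0.0161) and ended below it (−0.47, adjusted *P* = 0.00471).

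The high-confidence targets (HCGs) are p53 target genes that the study took from a published meta-analysis of other data. Those used here were picked from them for induction by wild type p53 in these same samples. Counts over them are therefore no independent evidence of their direction. The gene that the vectors carry was left out, which left 195. Of these, 139 rose in the interaction and none fell (median log2 1.22), and the gap narrowed for 86 and widened for 1, *ARC*. The level in p53 TM cells was called below that of wild type p53 for 178 at 6 h and for 120 at 24 h. Over all genes, 4.08% rose in the interaction and 2.07% narrowed their gap. Lower than wild type p53 were 10.8% of all genes at 6 h and 12.6% at 24 h. Among the 178, the gap narrowed for 86, of which 52 were no longer called lower at 24 h and 34 still were. A narrowing was not called for 92, of which 74 were lower at 24 h. These classes are from the fit without a replicate block, and the block within time called more narrowed gaps, as given below. A rise against pGFP came with a narrowed gap for 75 HCGs and without one for 64, and 11 narrowed their gap with no call in the interaction.

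In wild type p53 cells 69 of the HCGs rose further relative to pGFP over the same time and 3 fell. Over all genes the narrowed and widened gaps to wild type p53 numbered 1469 and 625 with the replicate block within time, 272 and 38 without both libraries of conflicting title, and 11 and 3 under the parentheses. DESeq2's size factors gave 307 and 115, which moved the share of narrowed gaps from 84.4% to 72.7%, and the Wald test gave 406 and 227 (64.1%). With the replicate block within time 161 HCGs rose in p53 TM, 118 narrowed their gap and 2 widened it. Without both libraries of conflicting title 124 HCGs rose in p53 TM and 73 narrowed their gap, and without p53 TM 24 h replicate 1 these numbers were 119 and 73. The 52 that narrowed it and were not called lower at 24 h, which does not show that their gap had closed, included *FAS*, *TP53I3*, *MDM2*, *SESN1*, *XPC*, *DDB2*, *GDF15*, *AEN*, *ASCC3* and *TNFRSF10B*. The 34 that narrowed it and stayed lower included *CDKN1A*, *BTG2*, *BBC3*, *APAF1*, *PANK1*, *DRAM1* and *RGMA*. *PLK2*, *PRDM1*, *ADGRG1*, *SFN*, *PMAIP1* and *VDR* were among the 74 lower at both times with no called change, although the change of *PLK2* and *PRDM1* passed the test under alternatives given above.

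**Figure D4:**
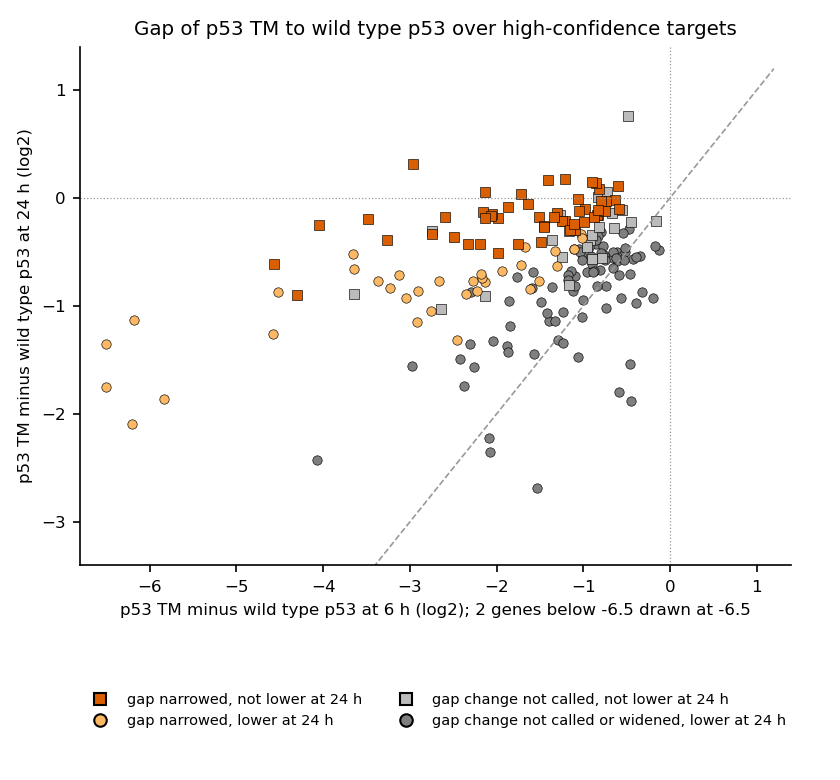
Log2 difference of p53 TM to wild type p53 for each of 195 HCGs at 6 h (x axis) and 24 h (y axis), with squares for genes not lower at 24 h, circles for genes lower at 24 h, orange shades where the gap narrowed, grey shades where it did not, a dotted line at 0 and a dashed line where both times are equal. All 195 lay below 0 at 6 h and 170 lay above the dashed line, and 2 genes beyond the left edge are drawn at it.

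In the list of HCGs used here, which may hold only part of the study's, 122 were entered under 6 h and 73 under 24 h alone. Of the 122, 97 rose in the interaction and 79 narrowed their gap, and 67 were lower than wild type p53 at 24 h. Of the 73, 42 rose, 7 narrowed their gap (19 with the replicate block within time) and 53 were lower at 24 h. The listing used the wild type p53 libraries of 6 h, which are part of the gap, so this contrast is a description with no test.

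The share of the wild type induction that p53 TM cells showed was taken on the linear CPM scale over 127 HCGs induced at least 2-fold by wild type p53 at both times. At 6 h its median per library was 4.56%, 1.61% and 5.86%, which became 85.4%, 50.9% and 38% by 24 h. Every late library exceeded the 3 early ones, and the late ones differed from one another, with replicate 1 highest and replicate 3 lowest. Means were 4.01% ± 2.18 at 6 h and 58.1% ± 24.5 at 24 h (SD, n = 3), a difference of 54.1 points, with a two-sided exact permutation *P* of 0.1, the smallest that 3 against 3 allows. Libraries of the same number deviated together at 24 h, so each p53 TM library was also set against the wild type p53 and pGFP libraries of its number, an alternative chosen after seeing the data. The medians were then 5.57%, 3.19% and 4.47% at 6 h and 70.3%, 49% and 50.5% at 24 h (mean 56.6% ± 11.9, SD, n = 3). Per gene, the median share went from 4.42% (quartiles −0.03% and 11.8%) to 55.8% (quartiles 44% and 78.4%), and 126 of the 127 gained.

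At 24 h 14 genes showed at least 90% of the wild type induction and 47 less than 50%. The 14 were *LINC02875*, *IKBIP*, *ACER2*, *POLH*, *ANKRA2*, *PHLDA3*, *ACTA2*, *XPC*, *FBXO22*, *ZMAT3*, *TNFRSF10B*, *PPM1D*, *RPS27L* and *DDB2*. *PHLDA3*, at the upper end of these, had 125%. At the other end stood *ADGRG1* with 8.39%, *ARC* with 12.8%, *PRDM1* with 13.5%, *CLCA2* with 18.3%, *SFN* with 18.7%, *HES2* with 22.5%, *PTPRU* with 23.3%, *RND3* with 24.7%, *SLC4A11* with 27.5%, *SULF2* with 27.6% and *PLK2* with 27.9%. *ARC*, an early response gene, was the 1 that fell, from 58.7%. These ends, like the members of lists named without values of each library, were named after their values were seen.

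**Figure D5:**
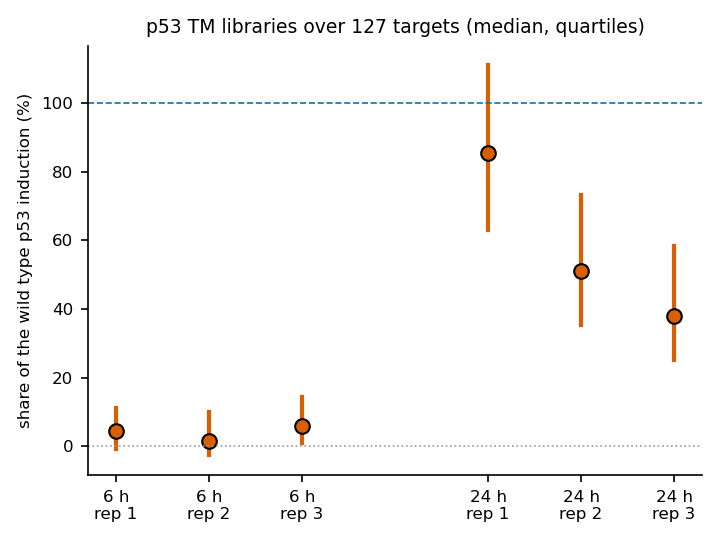
Share of the wild type p53 induction (y axis, percent) in each p53 TM library at 6 h and 24 h (x axis), with points for the median of 127 HCGs and bars for the quartiles; a dashed line marks wild type p53 and a dotted line pGFP. Medians lay between 1.61% and 5.86% at 6 h and between 38% and 85.4% at 24 h.

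Against p53 O6-meG, the same vector with AGT active, p53 TM gained in 197 genes (0.944%) with time and lost ground in 7 (0.0335%). Of the HCGs 63 gained and none lost ground. For *BTG2* the change was 3.12 (SE 0.19, adjusted *P* = 2.38e-11), from 105, 101 and 80.5 CPM in p53 O6-meG at 6 h and 88.7, 90.6 and 73.5 CPM at 24 h. The corresponding change of *CDKN1A* was 1.41 (SE 0.22, adjusted *P* = 0.000264), with p53 O6-meG at 529, 781 and 518 CPM at 24 h. Both 6 h groups of this comparison hold a library of conflicting title. With the replicate block within time 557 genes gained and 171 lost ground. Without both, 105 genes gained and 4 lost ground, and under the parentheses none did either by edgeR, with 1688 genes at an unadjusted *P* below 0.05.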

How the data were processed

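RNA of GFP-positive H1299 cells was sequenced in 30 libraries (total RNA without ribosomal RNA, stranded kit, 75-cycle single reads). The authors aligned reads with STAR 2.5.3a to hg38 and deposited raw counts per GENCODE gene made with featureCounts of Subread 1.5.2; whether counting used strand is not given in the sources used here. Of 39359 genes, 20875 passed edgeR's filterByExpr. One edgeR 4.0.16 quasi-likelihood fit (R 4.3.3, TMM, 10 groups) gave all contrasts, with Benjamini-Hochberg adjustment over all genes and calls at 0.05; induced against pGFP also asked for 2-fold. DESeq2 1.42.0 served as an alternative. Gene positions are from GENCODE 44. Shares of induction used CPM and an exact permutation test. Libraries were biological triplicates, so *P* values measure the spread between these cultures. The bounds of folds set each early library at 3 counts and take the late mean as measured, so they leave out the error of that mean.

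The 30 same-group pairs differed beyond sampling noise (chi-square per degree of freedom 5.115 to 41.87), so none was counted once. Same-numbered libraries deviated together at 24 h (all 30 correlations over 0.1, median 0.47) but in 16 of 30 pairs at 6 h and not across times (median −0.09), so the replicate block within time was taken as the paired fit. Alternatives were other scaling, low-count filters, the contrast's groups alone, replicate blocks, the names in parentheses, both conflicting libraries left out and each replicate left out. On simulated counts for the interaction over 20875 genes, edgeR recovered 56 of 100 genes changed by a log2 of 1 and 81 of 100 changed by 2, with 11 unchanged genes called. The simulated libraries were drawn independently around 1 mean per gene, apart from the changed genes. They lack the shared deviation of same-numbered libraries, so these numbers need not hold for the data.

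Named genes were those the study names beside its RNA-seq results, the 2 smallest *P* up and 1 down in each functional list, the 5 largest rises and falls among called genes of at least 1 CPM, and the 3 smallest *P* on each side of the change in the gap to wild type p53. Members and lists were chosen with earlier results of these data known. The gene the vectors carry was left out, a choice made once the data had been seen, which leaves 195 of 196 HCGs.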

Additional observations from a re-analysis of the deposited data

Results flagged for a closer look

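The response of p53 TM cells to p53, set against pGFP, differed between 6 h and 24 h by the test of the interaction itself for 852 genes that rose and 62 that fell. The difference of p53 TM to wild type p53 also changed between the times, with 433 genes that gained on wild type p53 and 80 that lost ground.

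Among the named genes with such a difference, the log2 interaction was 2.37 for *CDKN1A*, 2.77 for *BTG2*, 2.00 for *SFN* and 1.12 for *PLK2*, which act on the cell cycle. Of regulators and effectors of p53, it was 2.32 for *MDM2*, 1.63 for *ZMAT3*, 3.11 for *TP53I3*, 1.55 for *APAF1*, 1.38 for *BBC3* and 1.34 for *AEN*. The receptors had 1.92 for *FAS*, 1.42 for *TNFRSF10B* and 1.56 for *TNFRSF10A*. Repair genes had 1.26 for *DDB2*, 0.92 for *XPC* and 1.07 for *ASCC3*. Metabolic genes had 2.26 for *PANK1*, 1.90 for *DRAM1* and 1.52 for *SESN1*. The signalling genes *GDF15* and *JAG2* had 3.27 and 2.12, and the long non-coding RNAs *PVT1* and *TP53TG1* had 1.18 and 1.00.

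The fitted values of genes near 0 counts at 6 h were 9.92 for *RGMA*, 9.45 for *KCNS2*, 7.41 for ENSG00000250770.3, 7.38 for *GRIP2* and 6.51 for *PLXNB3*. These depend on the prior count and are no bounds. Falls were −1.52 for *DLL4*, −1.16 for *ENOX1*, −0.99 for *FAM111B*, −0.92 for *CCNE2*, −0.84 for *PLSCR4* and −0.60 for *RGS2*.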

How the results depend on the processing

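Counts of called genes moved by over 1.5 times as follows, and the cause was not tested. In the interaction of p53 TM with time, 1798 rose and 554 fell with the paired fit (replicate block within time), and 117 fell with a replicate block over both times. Falls numbered 144 with DESeq2's size factors, 296 by its Wald test, 145 with at least 10 counts in every library and 102 with the contrast's groups alone. Under the names in parentheses 1 rose and 0 fell. For the gap to wild type p53, narrowed and widened genes numbered 1469 and 625 with the block within time, 264 and 30 with the contrast's groups alone, 272 and 38 without both conflicting libraries and 11 and 3 under the parentheses. In addition 236 narrowed with at least 10 counts, and 227 widened by the Wald test, 37 with every gene of at least 1 count and 137 with the replicate block. For the gap to p53 O6-meG, genes that gained and lost ground numbered 557 and 171 with the block within time, 96 and 15 with at least 10 counts, 113 and 3 with the contrast's groups alone, 105 and 4 without both conflicting libraries and 0 and 0 under the parentheses by edgeR, where 1688 had an unadjusted *P* below 0.05. Those that lost ground numbered 21 with size factors, 52 by the Wald test and 24 with the replicate block. In the wild type response 2105 rose and 1881 fell with the block within time, and 512 rose with every gene of at least 1 count and 529 under the parentheses. Genes at least 2-fold above pGFP in p53 TM cells numbered 20 at 6 h with the block within time and 306 at 24 h with at least 10 counts. Under the parentheses 0 HCGs rose and 0 narrowed their gap by edgeR, the share of induction at 6 h was 32.6%, and the change in the gap of *KCNS2* reversed to −0.22. On the log2 scale the share at 6 h was 9.53%. Leaving out 1 replicate at a time, the interaction gave 508 to 1080 rises and 26 to 72 falls, with the fewest of both without p53 TM 24 h replicate 1. The gap to wild type p53 narrowed for 296 to 542 and widened for 25 (without p53 TM 6 h replicate 1) to 95. Against p53 O6-meG 138 to 241 genes gained, and those that lost ground numbered 2 to 26, the fewest when replicate 3 of p53 TM at 6 h and the most when replicate 1 at 24 h was left out. The wild type response gave 548 (without wild type p53 24 h replicate 1) to 1120 rises and 415 (without pGFP 24 h replicate 1) to 786 falls. Genes at least 2-fold above pGFP numbered 8 to 13 at 6 h and 407 (without p53 TM 24 h replicate 1) to 781 at 24 h. Rising HCGs numbered 119 to 150 and those with a narrowed gap 73 to 104, and the retained share of induction at 6 h was 3.10% to 5.23% and the retained share of induction at 24 h 44.7% to 68.3%. The depth limits the genes with under 10 counts at 6 h, whose fitted folds are no bounds.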
